A study of Mus musculus with 4 samples.

Results

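Mucin-type O-glycans are sugar chains built one sugar at a time on serine and threonine residues of secreted and membrane proteins, and they make up much of the mass of mucins. The genes described here encode the enzymes that build and finish these chains. They were taken by symbol from the table of sorted, lineage-marked pancreas cells: names that start with Galnt, B3gnt, B4galt, Gcnt, Fut, St3gal, St6gal, St6galnac or Chst followed by a digit, plus C1galt1 and C1galt1c1, with at least 50 unique molecular identifiers (UMIs, each standing for 1 captured RNA molecule) over the cells with a deposited type. Of 77 symbols that fit, 61 passed that limit, among 15551 genes that passed it in all. The other 16 held between 0 UMIs (Gcnt7) and 48 UMIs (St6galnac2.1). They are Galnt9, Galnt14, Galnt15, Galnt16, Galnt17, Gcnt7, B3gnt5, Fut7, Fut9, St6galnac1, St6galnac3, St6galnac2.1, Chst3, Chst5, Chst10 and Chst13. At the limit, Chst7 had 52 UMIs just inside it and St6galnac2.1 and Chst5 had 48 and 47 UMIs just outside it. The entry St6galnac2.1 was kept apart from St6galnac2 (7164 UMIs), and its relation to that gene was not checked.

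Chain building starts in the Golgi when a polypeptide N-acetylgalactosaminyltransferase (GALNT) attaches the first sugar. C1GALT1, which needs the chaperone encoded by C1galt1c1, then adds galactose to form core 1, and some GCNT enzymes add a branch to form core 2 or core 4. B3GNT and B4GALT enzymes extend the chains, and fucosyltransferases, sialyltransferases and carbohydrate sulfotransferases cap them. Several of these families also act on N-glycans, glycolipids and proteoglycans, so the list is wider than mucin synthesis. By role the members are 13 initiation, 6 core, 14 extension, 6 fucosylation, 12 sialylation and 10 sulfation genes. Galnt6os, which fits the name rule, is an antisense noncoding transcript of the Galnt6 locus and encodes no enzyme.

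The cells came from 4 mice of genotype Ptf1aCre-ERTM;ROSAYFP/+, backcrossed into CD-1. In them tamoxifen activates Cre in cells that express Ptf1a, which in the adult pancreas are the enzyme-secreting acinar cells, and EYFP then marks those cells and their descendants. All 4 mice received tamoxifen by gavage at 5 mg per day on 5 days a week for 2 weeks. They were then given caerulein, a secretagogue peptide that causes pancreatitis, 2 times a day on 5 days a week, starting at an age of 10 weeks. Of these, 2 mice were treated for 2 weeks and 2 mice for 4 weeks, and no uninjured mice were analysed here. EYFP-positive cells were sorted and their RNA was read from the 3′ end, so a gene's UMIs do not scale with its length. Levels of different genes are given on 1 scale, and other differences in how genes are captured and counted were not corrected.

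The 13362 typed cells fall into 8 deposited types: Acinar, Acinar.Prolif (proliferating), Acinar/MucinDuctal (intermediate), MucinDuctal, Ductal-like, Tuft/EEC.Progenitor, Tuft (chemosensory cells) and EEC (enteroendocrine, hormone-making cells). Each mouse contributed 2814 to 3974 cells and 60224505 to 90547790 UMIs. The progenitor type had only 10 cells in the first 2-week mouse, so its values rest on the other 3 mice. The marker lists followed the deposited names, except that the pit-type mucin gene Muc5ac, listed for MucinDuctal, had fewer than 50 UMIs in all typed cells together. In Acinar/MucinDuctal cells the summed level of 6 macrophage markers was 54.5 to 226 CPM (counts per 1e6 UMIs) across mice, against 9.36 to 24.03 CPM in Acinar cells. No cells were removed as doublets, and 47 cells carried a barcode sequence found in more than 1 library.

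Levels below are CPM of the UMIs summed per mouse and type. Per-mouse values are listed in a fixed order, first and second 2-week mouse, then first and second 4-week mouse. Types were compared within each mouse as log2((CPM + 1)/(CPM + 1)), and a gene was counted as higher or lower where the mean over mice was at least 1 in size and the sign was the same in every mouse. No p was computed between types, because the types were defined on the same counts.

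By mean CPM, 27 of the 61 members had their lowest level in Acinar cells and 0 had their highest level there, where 59.8% and 0.887% of all 15551 genes did. For 7 members and 576 of all genes several types tied for the lowest level, and these were counted for no type. EEC held the highest level of 17 members (27.9%, against 30.3% of all genes), Tuft of 15 (24.6%, against 19.7%), Ductal-like of 13 (21.3% of both) and MucinDuctal of 10 (16.4%, against 8.24%). Acinar.Prolif held that of 3, Tuft/EEC.Progenitor of 2 and Acinar/MucinDuctal of 1, where 4.21%, 13.8% and 1.51% of all genes peaked. Some members passed the limit of 50 UMIs only through the type where they were highest. Among them were St6galnac5 (96 of its 110 UMIs in EEC), Galnt13 (151 of 169 in EEC) and Chst1 (47 of 63 in EEC). St6gal2 (120 of 125 in Tuft) and B3gnt6 (51 of 60 in Tuft) were others. For these a high level in that type follows in part from the limit. The summed level of all 61 members was 358 ± 82.5 CPM in Acinar (SD, n = 4 mice), 953 ± 117 CPM in Acinar/MucinDuctal and 1415 ± 182 CPM in MucinDuctal cells. These sums cannot be read apart from the acinar enzymes, which took 57.7% to 67.1% of UMIs in Acinar cells, 26.2% to 32.4% in Acinar/MucinDuctal cells and 2.49% to 4.02% in MucinDuctal cells, and so lowered the CPM of every other gene in Acinar cells.

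**Figure D1:**
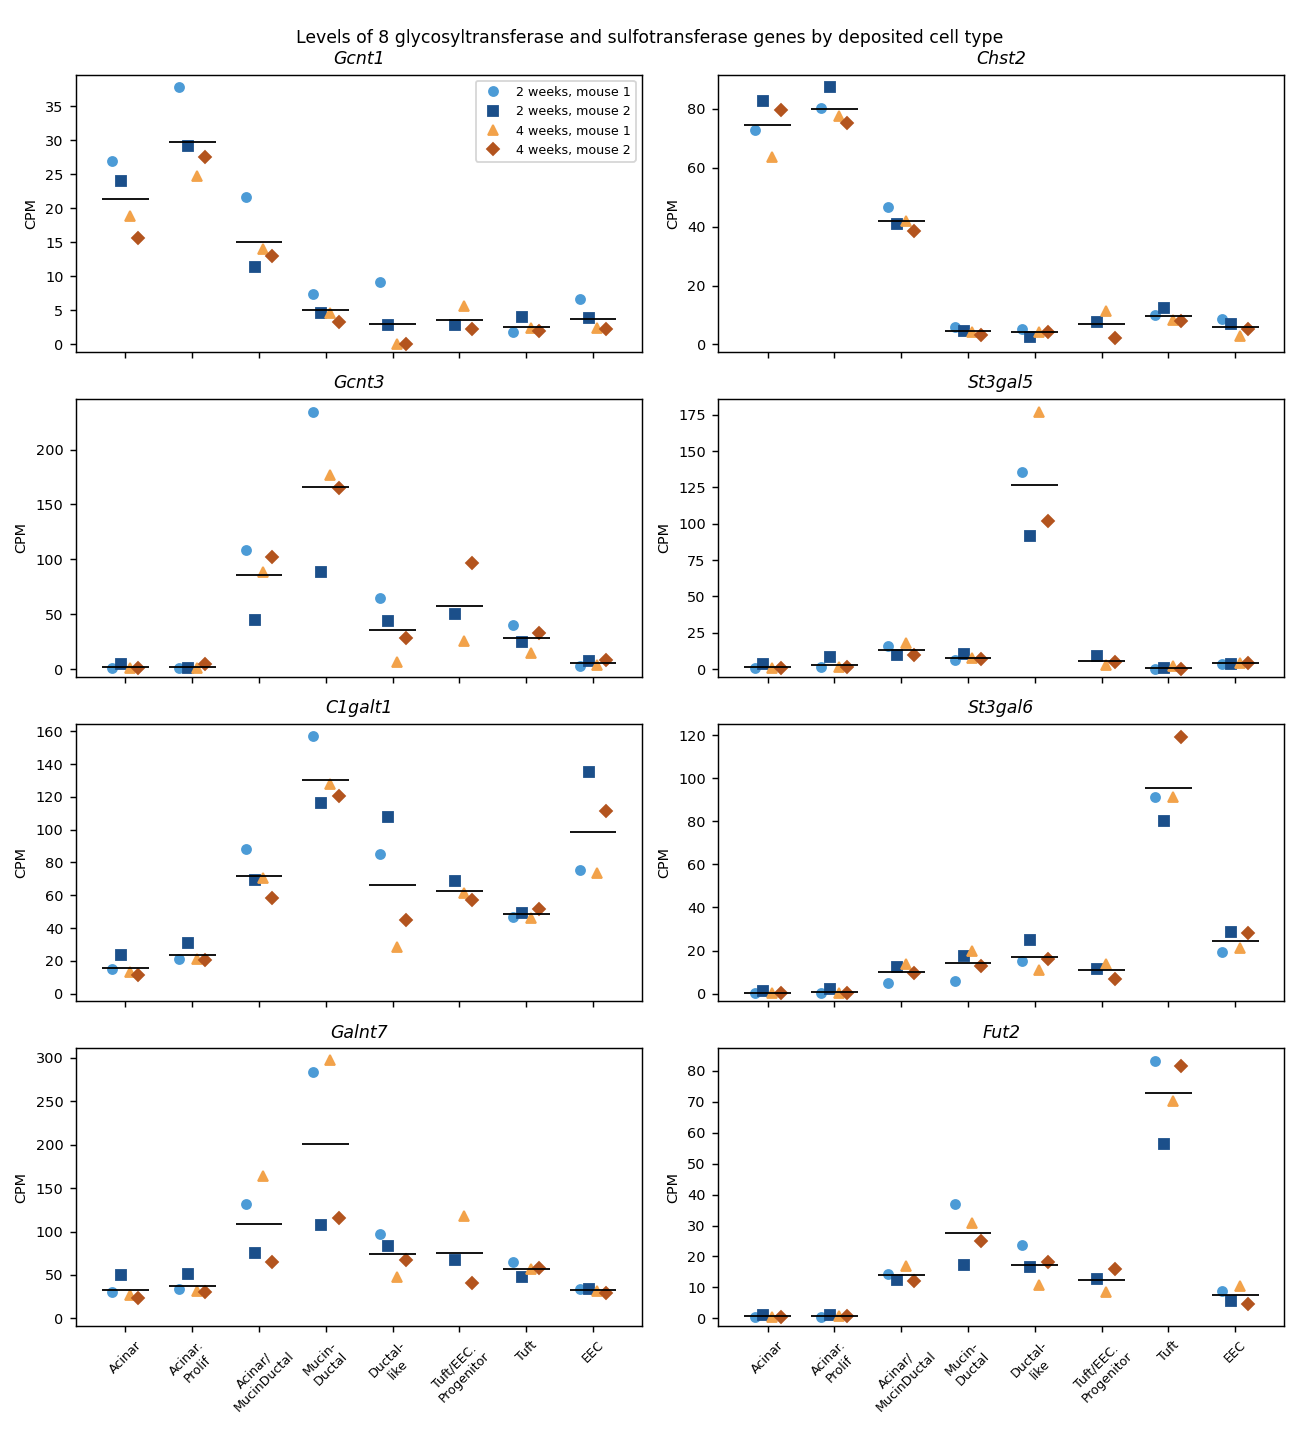
Level in CPM (y axis, linear, 1 panel per gene) of 8 members in the 8 deposited cell types (x axis); each point is 1 mouse and the black line is the mean. Gcnt1 and Chst2 are high in the acinar types, Gcnt3, C1galt1 and Galnt7 in MucinDuctal, St3gal5 in Ductal-like, and St3gal6 and Fut2 in Tuft cells; Tuft/EEC.Progenitor has 3 mice.

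Against Acinar cells of the same mouse, MucinDuctal cells had 28 members higher and 5 lower. Of all 15551 genes, 55.3% were higher and 1.67% lower by the same rule, against 45.9% and 8.20% of the members. The members' median log2 ratio was 0.87, and that of all genes was 1.12. With the enzymes taken out of the library totals 19 members (31.1%) were higher and 8 (13.1%) lower, against 11.5% and 5.90% of all genes, whose median was 0.15. The members' share called higher was thus below that of all genes on the first scaling and above it on the second. With a pseudocount of 5 CPM 3 members were lower (1.06% of all genes). Among the roles, initiation had the largest median, 2.37, with 8 of 13 genes higher and 0 lower. Core had 3 higher and 1 lower of 6, extension 7 and 1 of 14, fucosylation 3 and 1 of 6, sialylation 5 and 1 of 12, and sulfation 2 and 1 of 10.

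**Figure D2:**
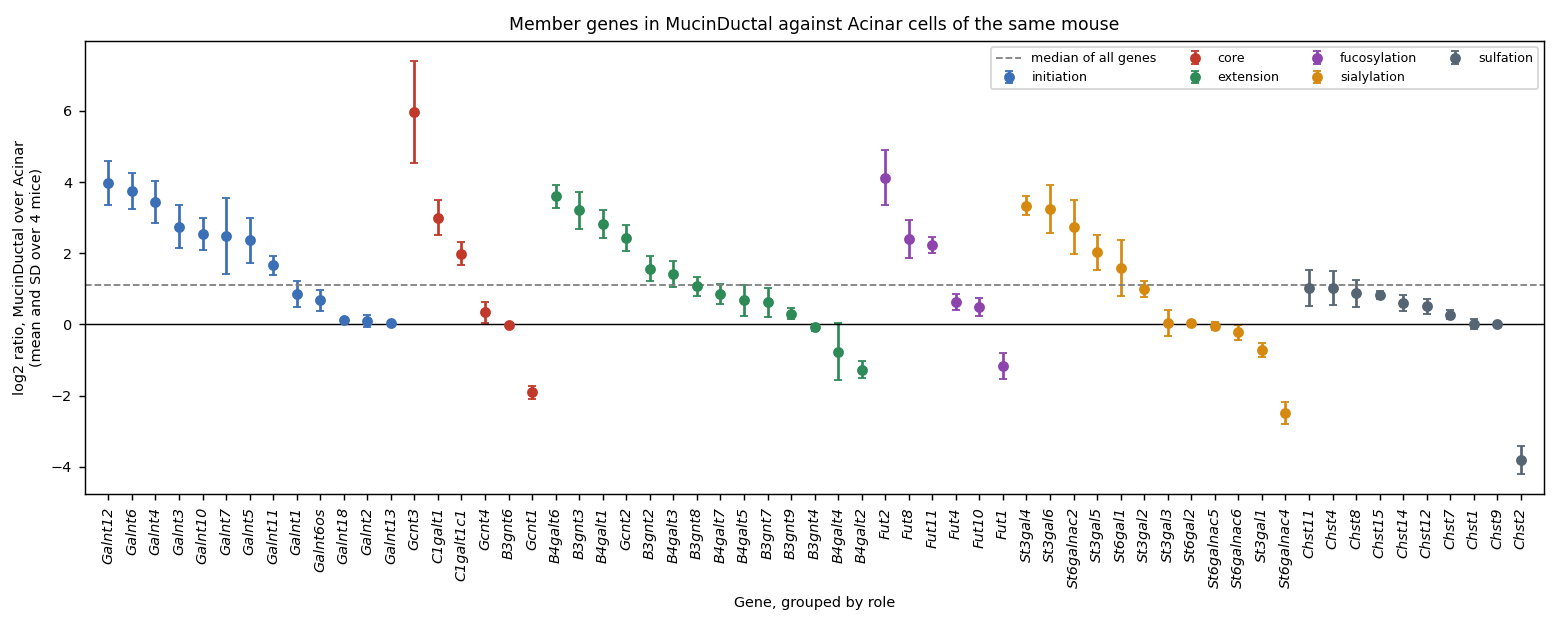
Mean log2 ratio of MucinDuctal over Acinar cells (y axis) for the 61 members (x axis, grouped and coloured by role); bars are the SD over 4 mice and the dashed line is the median of all genes, 1.12. Gcnt3 stands highest at 5.97 and Chst2 lowest at -3.81.

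Initiating enzymes set which protein sites receive a glycan. Galnt7, which acts on peptides that already carry a first sugar, was at 30.6, 49.8, 26.6 and 23.8 CPM in Acinar cells and at 284, 108, 297 and 116 CPM in MucinDuctal cells. Its 4 MucinDuctal values lay above all 4 Acinar values but split between mice, and the high pair held 1 mouse of each time point. Galnt3 was at 11.7, 13.5, 6.74 and 9.50 CPM in Acinar and at 81.1, 57.5, 86.1 and 72.5 CPM in MucinDuctal cells. Galnt12 was at 1.74, 4.26, 1.19 and 2.58 CPM in Acinar and at 43.0, 46.0, 53.7 and 59.5 CPM in MucinDuctal cells, a mean log2 ratio of 3.97 ± 0.61 (SD, n = 4). For both genes the groups of mice did not overlap.

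Galnt6 was at 1.04 to 1.36 CPM in Acinar cells and at 18.2, 30.3, 35.5 and 34.7 CPM in MucinDuctal cells. Galnt4 was at 4.33 to 8.53 CPM in Acinar cells and at 85.6, 56.2, 81.0 and 70.1 CPM in MucinDuctal cells. Galnt4 shares same-strand exon sequence with Poc1b in the annotation, so its counts are uncertain, and the same holds for Galnt2, B3gnt2 and B4galt2, each with another gene. Initiation was not uniform. Galnt1, broadly expressed, was at 34.4, 55.7, 37.3 and 23.3 CPM in Acinar and at 68.0, 73.9, 66.7 and 57.9 CPM in MucinDuctal cells, and Galnt2 was at 24.7 to 38.0 CPM in Acinar and at 28.7 to 34.5 CPM in MucinDuctal cells. The acinar enzymes lowered the Acinar values on this scale. In mean UMIs per cell, Galnt1 was at 1.26 in Acinar and 1.47 in MucinDuctal cells, and Galnt2 at 1.01 and 0.689. Galnt11 peaked in another type, with 37.2, 30.6, 39.5 and 44.5 CPM in EEC against 17.2 to 20.2 CPM in MucinDuctal cells.

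Among the core enzymes, Gcnt1 and Gcnt3 had opposite patterns. Gcnt1 encodes the leukocyte-type core 2 branching enzyme and Gcnt3 the mucin-type enzyme that makes core 2 and core 4. Gcnt3 (chr9:70031496-70038088, minus strand, mm10) was at 0.758, 5.01, 0.766 and 1.15 CPM in Acinar, at 108, 44.96, 88.4 and 102 CPM in Acinar/MucinDuctal and at 234, 88.1, 177 and 165 CPM in MucinDuctal cells. Gcnt1 (chr19:17326141-17372844, minus strand, mm10) was at 27.0, 24.03, 18.9 and 15.6 CPM in Acinar, at 21.7, 11.4, 14.1 and 12.96 CPM in Acinar/MucinDuctal and at 7.42, 4.64, 4.68 and 3.34 CPM in MucinDuctal cells. In every mouse Gcnt1 stood above Gcnt3 in Acinar cells and below it in MucinDuctal cells, with mean log2 ratios between the types of 5.97 ± 1.42 for Gcnt3 and -1.91 ± 0.18 for Gcnt1. Taking the enzymes out of the totals gave 5.08 for Gcnt3 and -3.25 for Gcnt1, so neither direction turned.

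As a gauge of free RNA, 136 to 173 cells per mouse that carried at least 3 of 5 B cell markers and had no deposited type were read the same way. Their Gcnt3 level was 3.44 ± 1.37 CPM (SD, n = 4 mice; median depth 2917 to 3816 UMIs per cell), from 11 UMIs in all. Per cell, B cell-like cells had a mean of 0.0182 Gcnt3 UMIs, Acinar cells 0.0619 and MucinDuctal cells 3.54, and Acinar cells were deeper, with a median of 24008 to 32664.5 UMIs per cell in each mouse. Per cell, 19 of the 61 members were no higher in Acinar than in B cell-like cells, and 8 of these 19 were among the 28 counted as higher in MucinDuctal cells. Galnt12 (0.0826 against 0.0878 UMIs per cell) and Galnt6 (0.0414 against 0.0415) were among the 19, as were Fut11, St3gal6, St3gal2 and B3gnt2. The Acinar levels of these genes were thus not above the gauge, and the ratios over them are given as computed. In MucinDuctal cells 10 members were no higher than the gauge, St6galnac4 among them. The share of all genes no higher than the gauge was not computed for either type, so the counts of 19 and 10 are not read as particular to the members. A gene that B cells express themselves also stands high in the gauge. C1galt1, the core 1 synthase, was at 15.3, 23.5, 13.2 and 11.5 CPM in Acinar and at 157, 116, 128 and 121 CPM in MucinDuctal cells, and its next highest type was EEC with 75.2, 135, 73.4 and 111 CPM. Its chaperone gene C1galt1c1 was at 8.73 to 10.5 CPM in Acinar and at 40.3, 30.8, 48.3 and 47.1 CPM in MucinDuctal cells, and Tuft cells stood at a like level of 39.2 to 45.2 CPM. The other core genes were scarce. B3gnt6, the core 3 synthase, had 60 UMIs in all, of which 51 were in Tuft cells, and Gcnt4 was at 13.1, 8.88, 10.8 and 15.4 CPM in EEC and at no more than 2.69 CPM in any mouse of any other type.

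Extension genes divided the epithelial types among them. B4galt1, the main galactosyltransferase of type 2 chains, was at 4.44 to 10.3 CPM in Acinar and at 43.0, 54.5, 46.7 and 46.9 CPM in MucinDuctal cells. B4galt6, which makes lactosylceramide for glycolipids, was highest in Ductal-like cells at 206, 226, 253 and 202 CPM, against 122, 159, 102 and 95.9 CPM in MucinDuctal and 5.28 to 15.0 CPM in Acinar cells, and it had the largest level of the extension group. B4galt3 was at 49.6, 51.3, 45.5 and 49.3 CPM in EEC and at 5.86 to 11.4 CPM in Acinar cells. B3gnt2, which builds poly-N-acetyllactosamine, was at 35.1, 39.7, 46.3 and 42.8 CPM in Tuft cells and at 3.22 to 5.69 CPM in Acinar cells, and its Tuft and Tuft/EEC.Progenitor levels overlapped. B4galt2 was lower in MucinDuctal than in Acinar cells, by a mean log2 ratio of -1.27 ± 0.24.

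RNA levels of the fucosyltransferase genes differed by type as well. Fut2, the secretor fucosyltransferase that makes H antigen on mucins, was at 0.299, 1.21, 0.421 and 0.505 CPM in Acinar, at 36.8, 17.3, 31.0 and 24.9 CPM in MucinDuctal and at 83.1, 56.3, 70.4 and 81.5 CPM in Tuft cells. Fut8, which adds the core fucose of N-glycans, was at 10.4 to 18.3 CPM in Acinar, at 95.2, 59.1, 104 and 79.1 CPM in MucinDuctal and at 118, 98.2, 136 and 121 CPM in Tuft cells, the largest level of the fucosylation group. Fut11 was highest in Ductal-like cells, at 19.8, 14.2, 32.7 and 16.3 CPM against 0.804 to 1.67 CPM in Acinar cells. Fut1, which makes H antigen on other chains, went the other way in MucinDuctal cells, with a mean log2 ratio to Acinar cells of -1.17 ± 0.37 at levels of at most 3.83 CPM.

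Of the 61 members, the sulfation gene Chst2 had the lowest log2 ratio of MucinDuctal over Acinar cells. Chst2 (chr9:95399292-95406722, minus strand, mm10), which sulfates N-acetylglucosamine on carbon 6, was at 72.7, 82.7, 63.6 and 79.6 CPM in Acinar, at 46.8, 40.8, 41.8 and 38.4 CPM in Acinar/MucinDuctal and at 6.02, 4.67, 4.06 and 3.09 CPM in MucinDuctal cells. The 3 sets of mice did not overlap, and the mean log2 ratio of MucinDuctal over Acinar was -3.81 ± 0.38, or -5.19 with the enzymes out of the totals. B cell-like cells had 6.45 ± 7.32 CPM of Chst2, 13 of their 21 UMIs came from the second 4-week mouse, and per cell they had a mean of 0.0353 Chst2 UMIs against 0.0994 in MucinDuctal cells. Chst2 was also low in the other non-acinar types, with means of 4.07 CPM (Ductal-like), 9.67 CPM (Tuft) and 5.94 CPM (EEC). No other sulfotransferase exceeded 25.2 CPM in any mouse of any type.

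Other genes of the pathway, given from a list of sugar donors and transporters, further transferases and acceptor mucins, were read beside the members. Of 24 donor and transporter genes with at least 50 UMIs, 20 were higher in MucinDuctal than in Acinar cells and 0 lower, with a median log2 ratio of 1.84. Of 10 further transferases 5 were higher, and of 5 mucins 4 were higher, with 0 lower in either list, beside the 55.3% higher, 1.67% lower and median of 1.12 of all genes. With the enzymes out of the totals, 7 of 24 donor and transporter genes were higher and 2 lower (median 0.58), and 3 of 10 transferases and 3 of 5 mucins were higher with 0 lower. Of all genes 11.5% were then higher and 5.90% lower. A4gnt, which caps gastric gland mucin with alpha-linked N-acetylglucosamine, was at 0.559, 0.864, 0.996 and 1.29 CPM in Acinar and at 192, 32.1, 186 and 134 CPM in MucinDuctal cells. Muc6, the gastric gland mucin itself, was at 28.1, 101, 59.4 and 66.2 CPM in Acinar and at 4761, 2057, 6601 and 4115 CPM in MucinDuctal cells. For A4gnt, Muc6 and Gcnt3 alike, the second 2-week mouse had the lowest MucinDuctal level.

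MucinDuctal cells consist of deposited clusters 1 and 2, and their mixture differed between mice. Cluster 1 supplied 113, 1138, 228 and 551 of the cells and cluster 2 supplied 258, 250, 733 and 712. Only the second 2-week mouse had more cells in cluster 1 than in cluster 2. Between the clusters, 4 members were higher in cluster 2 and 5 in cluster 1, against 1.38% and 4.60% of all genes. Only 2 were higher in cluster 1 with a pseudocount of 5 CPM (1.99% of all genes) or when a mean of at least 5 CPM was asked for (3.51%). Gcnt3 was at 53.6, 53.4, 30.6 and 51.6 CPM in cluster 1 and at 298, 238, 209 and 249 CPM in cluster 2, so within a cluster the second 2-week mouse was no longer the lowest.

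The other members higher in cluster 2 were initiating enzymes. Galnt5 was at 3.10 to 4.68 CPM in cluster 1 and at 12.2 to 15.3 CPM in cluster 2, and Galnt3 was at 38.6 to 49.3 CPM and at 90.8 to 100 CPM. Galnt7 was at 95.7, 89.1, 138 and 92.0 CPM in cluster 1 and at 351, 189, 332 and 134 CPM in cluster 2, and it kept its split between mice within cluster 2. Higher in cluster 1 were Gcnt2, which makes branched I antigen, at 13.6 to 25.4 CPM against 4.17 to 7.16 CPM in cluster 2, and St3gal4, at 32.5 to 68.5 CPM against 9.69 to 30.2 CPM. The last 3 were Chst8, Chst11 and Chst15, with mean log2 ratios of cluster 2 over cluster 1 of -1.40, -1.14 and -1.11 at levels of at most 5.39 CPM. Clusters were defined on the same counts, so these values describe them and test nothing.

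**Figure D3:**
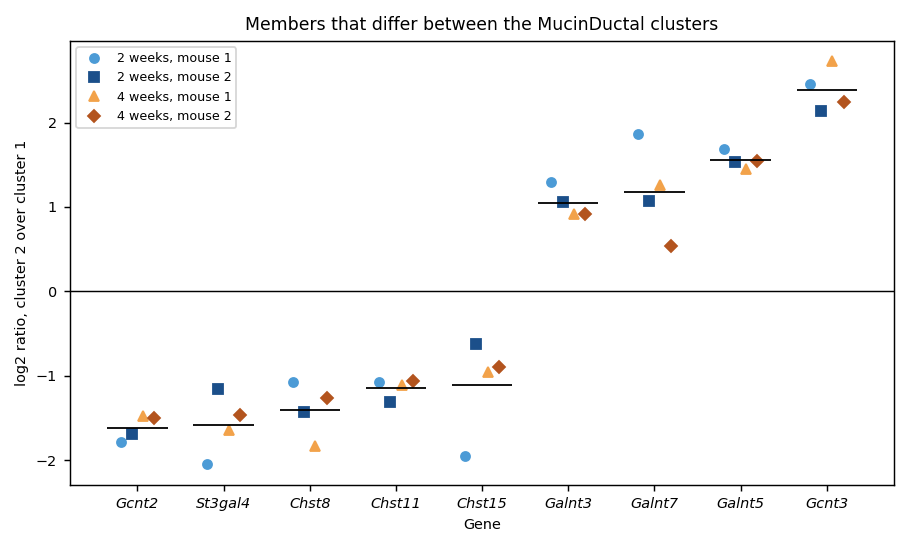
Log2 ratio of cluster 2 over cluster 1 within each mouse (y axis) for the 9 members counted as different (x axis); points are mice and black lines are means. Gcnt3 is highest with a mean of 2.39 and Gcnt2 lowest with a mean of -1.62, and every mouse lies on the same side of 0 for each gene.

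Intermediate Acinar/MucinDuctal cells had 27 members higher than Acinar cells and 0 lower, where 43.1% of all genes were higher and 0.296% lower. Without the enzymes in the totals 19 were higher and 5 lower, against 11.4% and 2.00% of all genes, and with a pseudocount of 5 CPM 17 were higher (17.9% of all genes). By mean level, 42 of the 61 members lay in these cells between the Acinar and the MucinDuctal mean or at one of them, where 75.4% of all genes did. Above both lay 18 (23.6% of all genes) and below both 1 (1.02%). St3gal5 was among those above both, with a mean of 13.1 CPM against 1.39 and 7.79 CPM. Depth differed between the mice in these cells, with medians of 3387, 19556, 2659 and 3555 UMIs per cell. Cells with at least 5000 UMIs, of which there were 118 of 301, 192 of 293, 118 of 349 and 372 of 1012, also gave 27 members higher and 0 lower. The share of all genes in those cells is not given, so these counts are not read as particular to the members. The macrophage markers given above were also highest in these cells by mean, and their part in these values was not tested. Acinar.Prolif cells had 0 members higher and 0 lower than Acinar cells, where 5.75% and 0.277% of all genes were.

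Ductal-like cells had 33 members higher than Acinar cells and 2 lower, against 61.4% and 1.45% of all genes, or 20 and 5 without the enzymes in the totals, against 22.6% and 4.97%. By role, 8 of 13 initiation, 3 of 6 core, 7 of 14 extension, 3 of 6 fucosylation, 7 of 12 sialylation and 5 of 10 sulfation genes were higher. No role stood clearly above the 61.4% of all genes. St3gal5, which makes the ganglioside GM3 and so acts on glycolipids, was at 135, 91.8, 177 and 102 CPM in Ductal-like cells, at 6.49 to 10.4 CPM in MucinDuctal and at 0.561 to 3.63 CPM in Acinar cells. St3gal4, which sialylates galactose at the ends of chains, was at 166, 90.5, 127 and 126 CPM in Ductal-like cells, at 27.1, 61.3, 13.8 and 32.6 CPM in MucinDuctal and at 0.804 to 5.65 CPM in Acinar cells. The summed level of the 12 sialylation genes was 362 ± 51.8 CPM in Ductal-like cells and 107 ± 22.5 CPM in MucinDuctal cells. Most of the Ductal-like sum came from St3gal4 and St3gal5, with means of 127 and 126 CPM. Against MucinDuctal cells, 14 members were higher and 7 lower in Ductal-like cells, and 10.3% and 2.90% of all genes were. With a pseudocount of 5 CPM 6 were higher (5.57% of all genes), and cells with at least 5000 UMIs gave 3 lower (2.23%). The count of 7 was 11 without the first or without the second 2-week mouse and 3 without the first 4-week mouse. The shares of all genes without those mice are not given, so these moves are not read as particular to the members. The 7 were Gcnt3, Galnt6, B3gnt3, Galnt7, Fut8, Galnt3 and C1galt1. Ductal-like cells were few, 22 to 56 per mouse. The summed level of the 6 macrophage markers was 37.1 to 145 CPM across mice in these cells, against 9.36 to 24.03 CPM in Acinar cells. Its part in these values was not tested.

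Tuft cells had 31 members higher than Acinar cells and 6 lower, against 55.4% and 3.39% of all genes, or 19 and 13 without the enzymes in the totals, against 20.3% and 11.0%. With a pseudocount of 5 CPM 3 were lower (1.81% of all genes). Against MucinDuctal cells, where library totals hold few enzymes, 11 members were higher and 14 lower in Tuft cells, and 12.8% and 10.2% of all genes were. B4galt5, a galactosyltransferase of glycolipids, was at 102, 103, 96.5 and 93.8 CPM in Tuft cells and at no more than 18.4 CPM in any mouse of another type. St3gal6 (chr16:58468125-58524243, minus strand, mm10), which sialylates type 2 chains, was at 91.3, 80.2, 91.1 and 119 CPM in Tuft, at 19.5, 28.8, 21.0 and 28.3 CPM in EEC and at 0.259 to 1.09 CPM in Acinar cells. St6galnac2, which sialylates the first sugar of the O-glycan, was at 111, 91.3, 87.8 and 84.7 CPM in Tuft and at 27.7 to 41.6 CPM in MucinDuctal cells.

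St3gal2 was at 48.0, 32.7, 37.3 and 35.7 CPM in Tuft cells, at 9.18 to 13.1 CPM in Ductal-like and at 0.0383 to 0.346 CPM in Acinar cells. B4galt4 was at 50.9, 43.3, 46.6 and 64.2 CPM in Tuft cells and at 3.71 to 14.6 CPM in Acinar cells. Chst15, which sulfates chondroitin chains of proteoglycans, was at 25.2, 21.7, 21.7 and 17.1 CPM in Tuft and at 18.5, 23.7, 16.0 and 20.4 CPM in EEC, which overlapped. Gcnt2 was at 28.1, 21.7, 34.3 and 27.2 CPM in Tuft and at 0.336 to 2.54 CPM in Acinar cells. St6gal2, an alpha-2,6-sialyltransferase, had 120 of its 125 UMIs in Tuft cells, at 5.27, 2.69, 6.01 and 10.5 CPM. In the 16493539 UMIs of EEC it had 0, which allows a level of up to 0.182 CPM (3 counts over all mice, counting error only).

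Within the tuft lineage the deposited subtypes Tuft-1, Tuft-2 and Tuft-3 were read the same way, where a mouse had at least 20 cells of the subtype, which left 2 mice for Tuft-1. St3gal6 was at 18.8 and 15.4 CPM in Tuft-1 (second 2-week and second 4-week mouse), at 81.5, 80.6, 83.8 and 94.6 CPM in Tuft-2 and at 121, 132, 118 and 157 CPM in Tuft-3. Fut2 was at 24.01 and 25.6 CPM, then at 74.2, 58.5, 57.7 and 69.3 CPM, then at 99.4, 82.4, 91.4 and 98.6 CPM over the same subtypes. B4galt4, St3gal2 and St6gal2 had the same order of means. B3gnt2 had the reverse order, at 63.5 and 108 CPM in Tuft-1, at 36.2 to 58.7 CPM in Tuft-2 and at 26.0 to 38.5 CPM in Tuft-3, with overlap between the latter. Between Tuft-3 and Tuft-2, 3 members (St3gal2, Gcnt2 and St6gal2) were higher in Tuft-3 and 0 lower, where 2.35% and 1.74% of all genes were, and 1 was higher with a pseudocount of 5 CPM (0.913%). B4galt5 was at 76.1 to 104 CPM in Tuft-2 and at 100 to 127 CPM in Tuft-3, and Fut8 at 115 to 146 CPM and 110 to 137 CPM, with overlap for both.

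**Figure D4:**
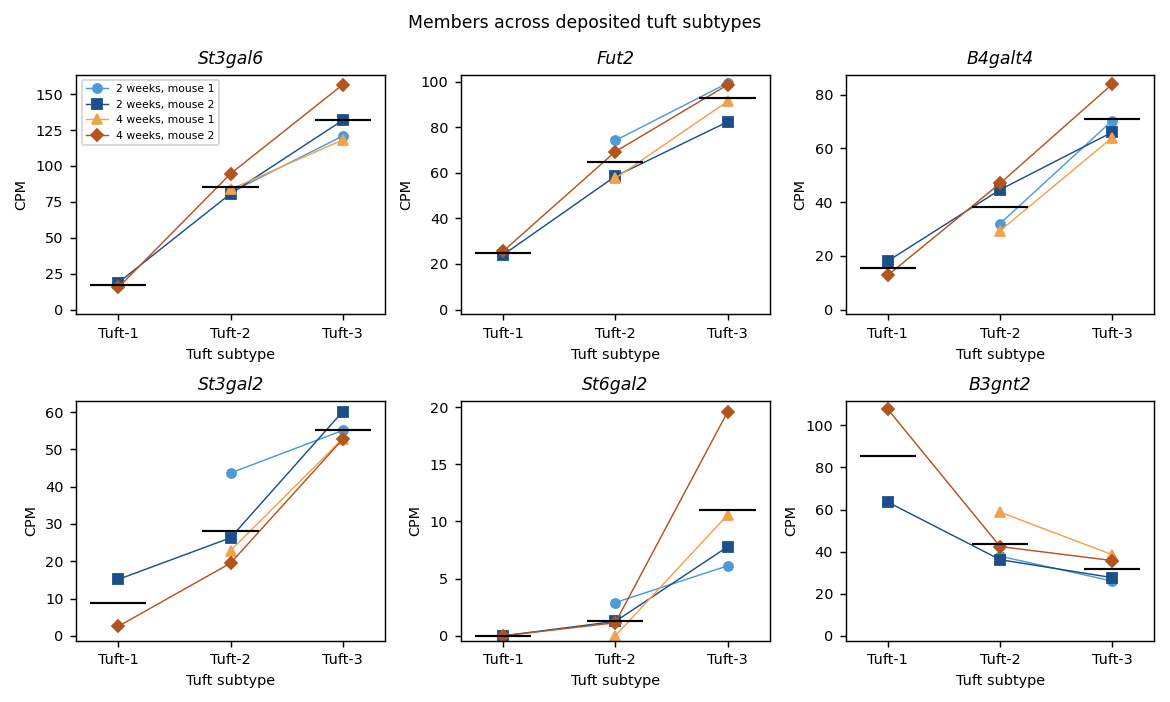
Level in CPM (y axis) of 6 members in the deposited subtypes Tuft-1, Tuft-2 and Tuft-3 (x axis); each line joins the values of 1 mouse, black lines are means, and Tuft-1 has 2 mice. St3gal6, Fut2, B4galt4 and St3gal2 are higher in each subtype than in the one to its left in every mouse, and B3gnt2 is lower.

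Enteroendocrine cells had 40 members higher than Acinar cells and 3 lower, where 65.0% and 2.25% of all genes were, or 25 and 7 without the enzymes in the totals, against 28.1% and 8.24%. With a pseudocount of 5 CPM 22 were higher (47.1% of all genes). Against MucinDuctal cells 18 members were higher and 11 lower in EEC, and 19.2% and 8.51% of all genes were. The count of 18 was 6 with a pseudocount of 5 CPM (11.6% of all genes) and 11 when a mean of at least 5 CPM was asked for in 1 of the 2 types (15.6%). Gcnt3 was lowest in that comparison, at 2.71, 7.50, 3.95 and 7.84 CPM in EEC. St6galnac4, which makes disialyl core 1 chains, was at 11.6, 24.5, 16.0 and 14.8 CPM in EEC, at 7.01 to 11.9 CPM in Acinar and at 0.429 to 1.85 CPM in MucinDuctal cells, so it was lower in MucinDuctal than in both. Galnt13 had 151 of its 169 UMIs in EEC, at 11.6, 8.88, 9.99 and 5.88 CPM.

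Deposited endocrine subtypes split these genes further. Galnt13 was at 19.6, 25.3, 19.0 and 14.2 CPM in Epsilon (Ghrl+) cells and at 11.8, 20.4, 9.58 and 4.12 CPM in Ppy+ cells. Chst1, which sulfates galactose, was at 29.2, 10.4, 26.8 and 10.7 CPM in ECL (Tac1+) cells, against at most 2.88 CPM in any mouse of the other subtypes. Chst15 was at 41.1, 44.6, 37.7 and 45.2 CPM in EEC-Progenitor (Neurog3+) cells, above every mouse of the other endocrine subtypes. Gcnt4 was at 43.7, 18.8, 26.8 and 33.7 CPM in ECL cells. The subtypes held 20 to 166 cells per mouse, so these levels rest on few UMIs, 63 for Chst1 over all typed cells.

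The small Tuft/EEC.Progenitor type had 31 members higher than Acinar cells and 5 lower in its 3 mice, where 55.1% and 2.11% of all genes were, or 17 and 8 without the enzymes in the totals, against 15.7% and 7.86%. With a pseudocount of 5 CPM 20 were higher and 3 lower (41.3% and 1.11% of all genes), and asking for a mean of at least 5 CPM in 1 of the 2 types also left 3 lower (1.45%). Galnt12 had its highest mean there, at 37.7, 92.3 and 61.9 CPM (second 2-week mouse, then the 4-week mice), which overlapped the MucinDuctal values. St6gal1 was at 33.5, 25.2 and 27.5 CPM, close to its values in Ductal-like cells of 28.1, 28.4, 19.6 and 42.8 CPM.

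Promoter sequence was read for 3 members with different patterns whose exons overlap no same-strand exon of another annotated gene: Galnt7 (high in MucinDuctal), St6galnac4 (low in MucinDuctal) and St6gal2 (found in Tuft). The 250 bases before the start are from RefSeq, GRCm38.p6, on the gene's own strand. Capitals mark matches on either strand to the GC box GGGCGG, to the E-box CANNTG or to the octamer ATGCAAAT, and no match overlapped another in these windows.
Galnt7, chr8:57653056-57653305, minus strand: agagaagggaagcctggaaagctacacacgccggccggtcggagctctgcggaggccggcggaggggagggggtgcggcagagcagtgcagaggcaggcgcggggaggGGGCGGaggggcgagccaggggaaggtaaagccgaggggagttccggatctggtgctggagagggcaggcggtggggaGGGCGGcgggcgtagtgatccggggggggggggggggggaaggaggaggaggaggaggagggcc
St6galnac4, chr2:32586828-32587077, plus strand: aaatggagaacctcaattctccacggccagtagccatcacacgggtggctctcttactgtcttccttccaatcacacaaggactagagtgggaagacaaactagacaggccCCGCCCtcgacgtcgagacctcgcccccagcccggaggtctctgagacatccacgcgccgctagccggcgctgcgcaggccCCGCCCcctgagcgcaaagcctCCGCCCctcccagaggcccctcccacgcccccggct
St6gal2, chr17:55445132-55445381, plus strand: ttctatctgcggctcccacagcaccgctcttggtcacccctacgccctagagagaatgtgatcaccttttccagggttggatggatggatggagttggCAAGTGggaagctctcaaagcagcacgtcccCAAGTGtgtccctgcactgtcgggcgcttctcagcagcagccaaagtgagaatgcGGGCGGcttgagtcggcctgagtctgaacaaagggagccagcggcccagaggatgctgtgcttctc

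The Galnt7 window held 2 GC boxes and 73.6% G and C, the St6galnac4 window 3 GC boxes and 65.2%, and the St6gal2 window 1 GC box, 2 E-boxes and 58.4%. Over the table, 44 members had at least 1 window and 35 had exactly 1. Of those 35, 26 windows (74.3%) held the GC box, against 32.7% of all 32851 windows, whose median content of G and C was 52.4%. The E-box was in 65.7% of the members' windows and in 66.2% of all windows. The octamer was in 0 of 35 and in 1.60% of all. The 35 windows belong to genes with exactly 1 window and at least 50 UMIs, and the 32851 windows carry neither limit. Content of G and C was not computed for the 35, so these shares compare unlike sets. The matches are of letters only.

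Duration of injury was compared within each of 7 types by edgeR's quasi-likelihood test on the summed counts, 4 weeks minus 2 weeks. With Benjamini-Hochberg adjustment over all genes of a type at 0.05, 0 of the 28 to 50 members tested passed in any type, and 0.00% of all genes did in 6 types (0.00995%, a single gene, in Acinar.Prolif). At an unadjusted p under 0.05 there were 2 members for Acinar (2.79% of all genes), 1 for Acinar.Prolif (2.45%), 2 for Acinar/MucinDuctal (3.42%), 6 for MucinDuctal (5.39%), 4 for Ductal-like (5.27%), 4 for Tuft (6.74%) and 1 for EEC (4.03%). DESeq2 called 1 member in MucinDuctal, among 40 of all 13463 genes there (0.297%), and 0 members in the other 6 types. Of all genes it called 15 in Acinar (0.122%), 31 in Tuft (0.283%), 23 in Acinar/MucinDuctal (0.198%), 13 in EEC (0.110%), 2 in Acinar.Prolif (0.0199%) and 0 in Ductal-like (0.00%). Of the other pathway genes 0 were called in any type.

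Lower at 4 weeks in the largest number of these lists was St6gal1 (chr16:23224740-23360350, plus strand, mm10), which adds alpha-2,6-linked sialic acid to N-glycans. In MucinDuctal cells it was at 14.8 and 15.7 CPM at 2 weeks and at 6.13 and 6.30 CPM at 4 weeks, with no overlap. The log2 change was -1.18 (SE 0.15), with an adjusted p of 0.824 in edgeR and of 0.0267 in DESeq2, the only setting with all 4 mice that called it in these cells. In Acinar/MucinDuctal cells it was at 13.7 and 12.3 CPM against 6.83 and 5.34 CPM, in Tuft cells at 7.02 and 10.2 CPM against 3.61 and 4.03 CPM, and in EEC at 9.13 and 14.4 CPM against 6.58 and 5.60 CPM, with edgeR adjusted p of 0.892, 0.432 and 0.986. The types come from the same 4 mice, so a change seen in several types is not independent evidence. By overlap alone, St6gal1, St3gal3 and Fut4 were each lower at 4 weeks in 5 of 7 types, and St3gal3 was higher in 1. In Ductal-like cells the time points overlapped for St6gal1. The summed level of 5 T cell markers in these cells was 0 to 71.3 CPM across mice, and its part in the St6gal1 values was not tested.

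St6gal1 is also a B cell gene. Its level in the untyped B cell-like cells was 39.2 and 54.2 CPM at 2 weeks and 35.4 and 23.9 CPM at 4 weeks, with no overlap. In all untyped cells together it was at 13.7 and 24.6 CPM at 2 weeks and at 16.8 and 13.03 CPM at 4 weeks, which overlapped. The summed level of 5 B cell markers was 1.51 to 18.2 CPM across mice in MucinDuctal cells, 8.56 to 128 CPM in Acinar/MucinDuctal, 20.7 to 27.4 CPM in Tuft and 14.0 to 31.6 CPM in EEC. The part of B cell RNA in the St6gal1 values was not tested. Tuft subtypes also differed in St6gal1, at 19.1 and 12.8 CPM in Tuft-1 and at 1.24 to 6.98 CPM in Tuft-3.

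**Figure D5:**
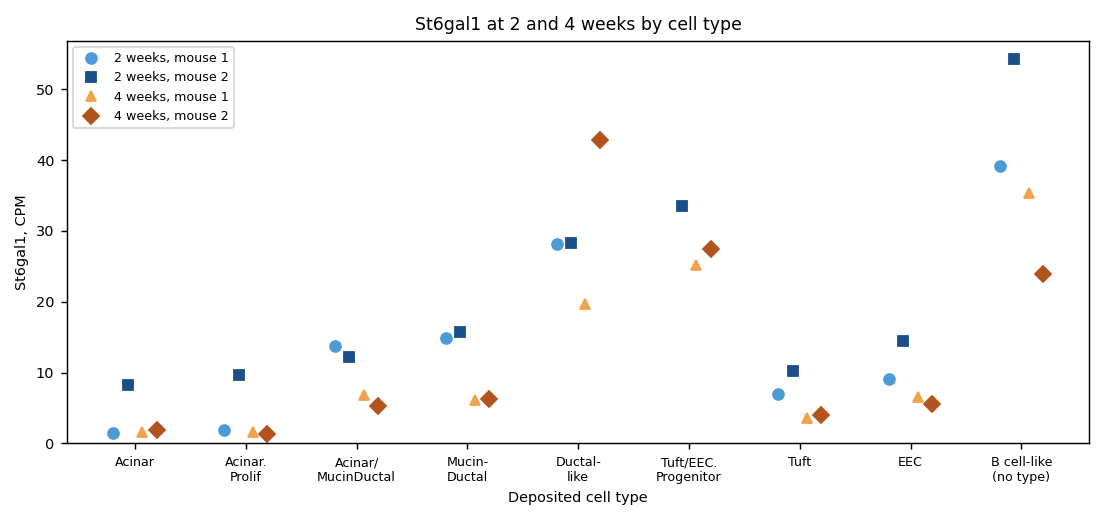
Level of St6gal1 in CPM (y axis) in each deposited type and in untyped B cell-like cells (x axis); each point is 1 mouse, blue at 2 weeks and orange at 4 weeks. In Acinar.Prolif, Acinar/MucinDuctal, MucinDuctal, Tuft and EEC, and also in the B cell-like cells, both 4-week mice lie below both 2-week mice. In Acinar and Ductal-like cells the time points overlap.

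C1galt1 had the smallest p in Ductal-like cells, at 85.1 and 108 CPM at 2 weeks and at 28.4 and 44.8 CPM at 4 weeks (log2 change -1.39, SE 0.29, edgeR adjusted p = 0.704). The 4-week values rest on 23 and 22 cells, and in the first of these mice acinar enzymes took 12.4% of the UMIs of Ductal-like cells against 2.92% to 3.29% in the other 3, whose part in the value was not tested. In Acinar cells St3gal3 had the smallest p, at 1.98 and 3.11 CPM against 0.881 and 0.981 CPM (edgeR adjusted p = 0.998). In Acinar.Prolif cells it was B4galt4, at 9.23 and 11.4 CPM against 2.97 and 5.45 CPM (edgeR adjusted p = 1.000).

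Counting only whether the mice of the time points overlapped, 20 of 41 members tested were lower at 4 weeks in Acinar cells and 0 higher, where 61.8% and 0.762% of all genes were. The share of members was not above that of all genes, and the acinar enzymes took 59.6% and 57.7% of the UMIs of these cells at 2 weeks and 67.1% and 65.8% at 4 weeks. In MucinDuctal cells 6 of 50 were higher and 11 lower, where 9.54% and 30.2% of all genes were. The counts higher and lower were 1 and 11 of 28 in Acinar.Prolif (4.39% and 27.3% of all genes) and 5 and 8 of 40 in Acinar/MucinDuctal (9.74% and 22.6%). They were 3 and 7 of 28 in Ductal-like (16.0% and 18.7%), 8 and 10 of 34 in Tuft (18.2% and 17.3%) and 6 and 11 of 49 in EEC (8.85% and 23.6%). Members higher in MucinDuctal cells at an unadjusted p under 0.05 were Galnt12, C1galt1c1, B3gnt2 and Galnt6, with log2 changes of 0.36 to 0.64 and edgeR adjusted p of 0.824 each, and the lower ones were St6gal1 and St6galnac4.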

How the data were processed

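Sorted pancreas cells of 4 mice were measured by 10x Genomics 3′ single-cell RNA sequencing. Per the submitters' processing notes, Cell Ranger 4.0.0, Seurat 3.2.3 and build mm10 were used; how cell types were named is not given in the sources used here. The authors deposited raw UMI counts per gene and cell and a type, cluster and subtype label per cell. Replicates are mice, 2 per time point.

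UMI counts were summed per mouse and label (at least 20 cells) and scaled to CPM with a pseudocount of 1. Time was tested with edgeR 4.0.16 (TMM, filterByExpr, robust quasi-likelihood) under R 4.3.3, with DESeq2 1.42.0 as the alternative. On simulated counts with 200 genes changed 4-fold, 178 were recovered in Acinar cells (9 false among 12088 genes) and 181 in MucinDuctal cells (9 false among 13307). All genes were simulated with 1 common dispersion, so differences in variation between genes were left out. Changes smaller than 4-fold were not simulated, so their recovery is not known. The merged table served for cells without a type, and the counts in a smaller table of tuft and enteroendocrine cells were not used, while its subtype labels were. Genes were placed with GENCODE M21.

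Values in every mouse are given for members with a mean of at least 20 CPM in 1 type and a mean log2 ratio to Acinar cells of at least 2 in size with 1 sign, for the highest member of each role, and for the smallest p of each time test; further members are named beside them. Members, lists and rules were chosen with earlier results of these data known. Alternatives are in the closing section.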

Additional observations from a re-analysis of the deposited data

How the results depend on the processing

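Of the 24 counts of members between types, 11 moved by over 1.5 times when acinar enzymes were left out of the library totals and 10 with a pseudocount of 5 CPM. Without the enzymes they were Acinar.Prolif lower 1, Acinar/MucinDuctal lower 5, MucinDuctal lower 8, Ductal-like higher 20 and lower 5, Tuft/EEC.Progenitor higher 17 and lower 8, Tuft higher 19 and lower 13, EEC higher 25 and lower 7, all against Acinar. With a pseudocount of 5 CPM the counts against Acinar were 17 higher in Acinar/MucinDuctal, 3 lower in MucinDuctal, 20 higher and 3 lower in Tuft/EEC.Progenitor, 3 lower in Tuft and 22 higher in EEC. Against MucinDuctal they were 6 higher in Ductal-like and 6 higher in EEC, and 2 were lower in cluster 2 than in cluster 1 and 1 higher in Tuft-3 than in Tuft-2. Asking for a mean of at least 5 CPM in 1 of the 2 types left 3 lower in Tuft/EEC.Progenitor, 11 higher in EEC than in MucinDuctal and 2 lower in cluster 2. Cells with at least 5000 UMIs gave 3 members lower in Ductal-like than in MucinDuctal. Leaving out 1 mouse gave ranges of 0 to 1 lower in Acinar.Prolif, 2 to 4 lower in Ductal-like than in Acinar, 3 to 11 lower in Ductal-like than in MucinDuctal and 0 to 2 lower in Tuft-3 than in Tuft-2. The shares of all genes for these ranges are not given. Leaving out the 5% of cells with most UMIs, a stand-in for doublets, moved 0 of the 24 counts by over 1.5 times. Of 119 ratios of single members, 79 moved by more than the SD over mice with the enzymes left out and 79 with a pseudocount of 5 CPM, and 0 changed sign.

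Over time, no gene filter gave 1 member in Acinar (Galnt6os) and 2 in Ductal-like (C1galt1, Gcnt3), and DESeq2 gave 1 in MucinDuctal (St6gal1). DESeq2 called 0.297% of all genes in MucinDuctal. The share of all genes called without the filter is not given, so those calls are not read as particular to the members. Leaving out 1 mouse leaves a lone mouse at 1 time point, which is assumed to vary like the other group. Some members were called in such fits, always without a 2-week mouse, and these calls are not listed. Over these fits the log2 change of St6gal1 in MucinDuctal cells ran from -1.18 to -1.16. That of C1galt1 in Ductal-like cells ran from -1.72 to -1.14. Over the alternatives the adjusted p of St6gal1 in MucinDuctal cells ran from 0.0267 to 1.000 and that of C1galt1 in Ductal-like cells from 0.000200 to 1.000. The cause was not tested. Depth limits the Ductal-like and progenitor types, where 3 counts over all mice amount to 0.643 and 0.664 CPM, and Acinar/MucinDuctal cells of 3 mice had medians of 2659 to 3555 UMIs per cell. No paired analysis was possible because the replicate numbers only follow the order of the samples and the time points share no mouse.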

Other observations

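Galnt7 split the mice across the time points. Among MucinDuctal cells of cluster 2 it was at 351 and 332 CPM in the first mouse of each time point and at 189 and 134 CPM in the second, and Acinar/MucinDuctal cells showed the same order, at 132 and 164 CPM against 75.2 and 64.7 CPM. In Tuft cells Galnt7 was at 65.0, 48.2, 56.8 and 57.5 CPM and in EEC at 34.0, 34.2, 31.0 and 29.7 CPM, without such a gap. The replicate numbers come from sample order and pair nothing. This difference was noticed in the values and was not tested.

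Galnt6os, the antisense transcript of the Galnt6 locus, was at 3.45, 1.15, 6.47 and 2.47 CPM in Acinar cells and at 6.72, 1.81, 9.63 and 6.17 CPM in MucinDuctal cells. The second 2-week mouse had the lowest level in both types. Galnt6 itself was not above the level of B cell-like cells per cell in Acinar cells, so the transcripts were not compared there.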
